A study of Mus musculus with 15 samples.

Results

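The comparison set livers of a transgenic mouse line in which human Z alpha1-antitrypsin was switched on against livers of the same line in which it was switched off, across 12393 genes. It rests on 6 of the study's 15 arrays, chosen by their labels alone. The 3 Z-on arrays came from mice that carried the Z transgene and drank no doxycycline. The 3 Z-off arrays came from mice with the same transgene whose drinking water held doxycycline (40 µg per mL) from conception until liver was taken, which keeps the transgene silent. All mice were labelled as males aged 3 months, and the labels call the 3 arrays of a group biological replicates. The other 9 arrays came from M-on and M-off mice, kept in the same 2 ways but with the wild type M form of the human protein, and from nontransgenic littermates without doxycycline, 3 of each. Expression was inducible and directed to hepatocytes. The promoter that drives it, the number of founder lines and the hour at which liver was taken are not given in the sources used here. Z-on and Z-off mice differed both in the transgene and in the drug, so an effect of the human protein and an effect of doxycycline cannot be told apart in this comparison. Expression of the human gene was not checked, because none of the probe sets used here measures it. In whole liver, fewer cells of a type and less RNA per cell cannot be told apart either.

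Alpha1-antitrypsin is a protease inhibitor that hepatocytes make and secrete into blood. The Z variant folds poorly, forms polymers and is held in the endoplasmic reticulum (ER), where it is cleared by ER-associated degradation and by autophagy, and its accumulation leads to liver fibrosis and cancer in some carriers. The liver also makes cholesterol by a pathway that the transcription factor SREBP2 switches on when sterols in the ER membrane run low, and it carries a circadian clock in which activators (Clock, Arntl) drive their own repressors (Per and Cry genes) and a set of output factors.

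The deposited values are linear probe set signals, given here for each array in the order of replicates 1, 2 and 3, Z-on before Z-off. Differences are log2 changes of signal plus 16, Z-on minus Z-off, with the standard error (SE) of a limma fit to all 15 arrays, and a gene is said to have risen or fallen where its adjusted p lay under 0.05 over all 12393 genes. By that rule 3913 genes rose (31.6%) and 925 fell (7.46%), 39.0% in all. Over all genes the median log2 change was 0.25 rather than 0. It moved to 0.05 after quantile normalization and to -0.21 after each array was centred on its median, so the split of calls depended on the scaling. Quantile normalization gave 1936 rises (15.6%) and 1281 falls (10.3%), and centring gave 1425 (11.5%) and 3506 (28.3%). Rises made up 80.9%, 60.2% and 28.9% of the calls under the deposited, quantile and centred scalings. Under all 3 scalings 1253 genes were called higher (10.1%) and 749 lower (6.04%). The 3 Z-on arrays all lay above the 3 Z-off arrays for 5212 genes (42.1%) and all below for 1576 (12.7%). Changes beyond 1 log2 unit were seen in 1437 rises (11.6%) and 201 falls (1.62%).

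The on and off arrays also differed in their technical controls, whose part in the results below was not tested. The median signal of an array was 47.8 to 52.5 in Z-on and 32.0 to 32.2 in Z-off, with littermates between them at 42.3 to 44.9. Poly-A controls, bacterial RNAs added before labelling, had a summary signal of 2.0 to 2.3 on Z-on arrays, 45.9 to 48.3 on Z-off arrays and 33.8 to 37.6 on littermate arrays, and the M line was split in the same way (3.7 to 5.2 on M-on and 42.6 to 57.9 on M-off). For 18S ribosomal RNA the 5′ probe set gave 1879.9 to 2666 on Z-on, 166 to 568 on Z-off and 75.0 to 286 on littermate arrays, beside 1830.0 to 2681 on M-on and 154 to 442 on M-off. The 3′ to 5′ signal ratio of actin, a measure of RNA integrity, was 1.47 to 1.73 on Z-on, 1.80 to 2.06 on Z-off and 2.34 to 2.46 on littermate arrays, and that of Gapdh 0.900 to 0.962, 0.817 to 0.824 and 1.05 to 1.11. The actin ratio was 1.29 to 1.61 on M-on and 1.66 to 2.01 on M-off arrays. Array correlations were 0.977 to 0.980 within Z-on, 0.979 to 0.984 within Z-off and 0.925 to 0.950 between them. Arrays labelled M-on 1 and M-on 2 gave female-type signals of sex-linked genes although labelled male, so counts and gene values of the M line are also given without them. The lone remaining M-on array is then assumed to vary like the other groups, so calls and adjusted p given without them rest on 1 M-on array.

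**Figure D1:**
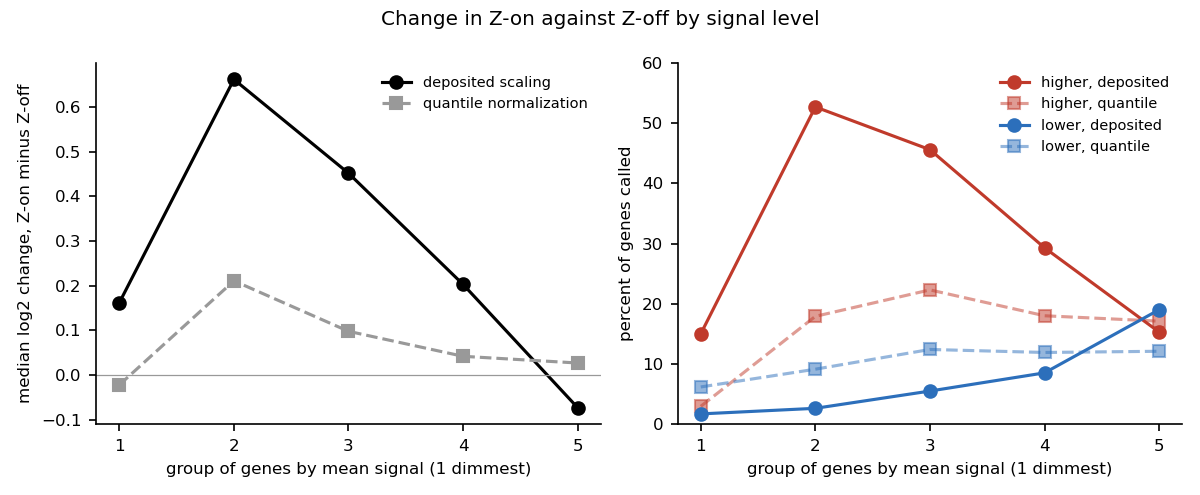
Genes sorted into 5 equal groups by mean signal over all 15 arrays (horizontal, 1 is the dimmest), with the median log2 change of Z-on minus Z-off (left) and the percent of genes called higher and lower (right) for the deposited scaling and after quantile normalization. The median ran from 0.66 in group 2 to -0.07 in group 5 with the deposited scaling, and lay between -0.02 and 0.21 after quantile normalization.

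Genes were divided into 5 equal groups by signal, from group 1, the dimmest, to group 5, the brightest. With the deposited scaling, rises were most frequent in groups 2 and 3 and falls in group 5. In group 1 15% of genes rose and 1.69% fell. In group 2 52.7% rose and 2.62% fell, in group 3 45.6% rose and 5.49% fell, and in group 5 15.3% rose and 19.0% fell. After quantile normalization rises were 2.95% in group 1 and falls ran only from 9.12% to 12.4% in groups 2 to 5, and were most frequent in group 3. Among lists of genes typical of tissues other than liver, only the neuronal one rose more often than the 31.6% of all genes. Of 27 neuronal genes, 14 rose (51.9%) and none fell. Their summed signal was 594 to 774 on Z-on arrays against 178 to 201 on Z-off arrays, but 574 to 589 in littermates. Of these 27 genes, 8 read under 16 on all 6 arrays. Skeletal muscle genes gave 4 rises in 24, eye and olfactory genes 6 in 20 and testis genes 7 rises and 1 fall in 23. Such rises stood beside those of each group of dim genes below, and their part in them was not tested.

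**Figure D2:**
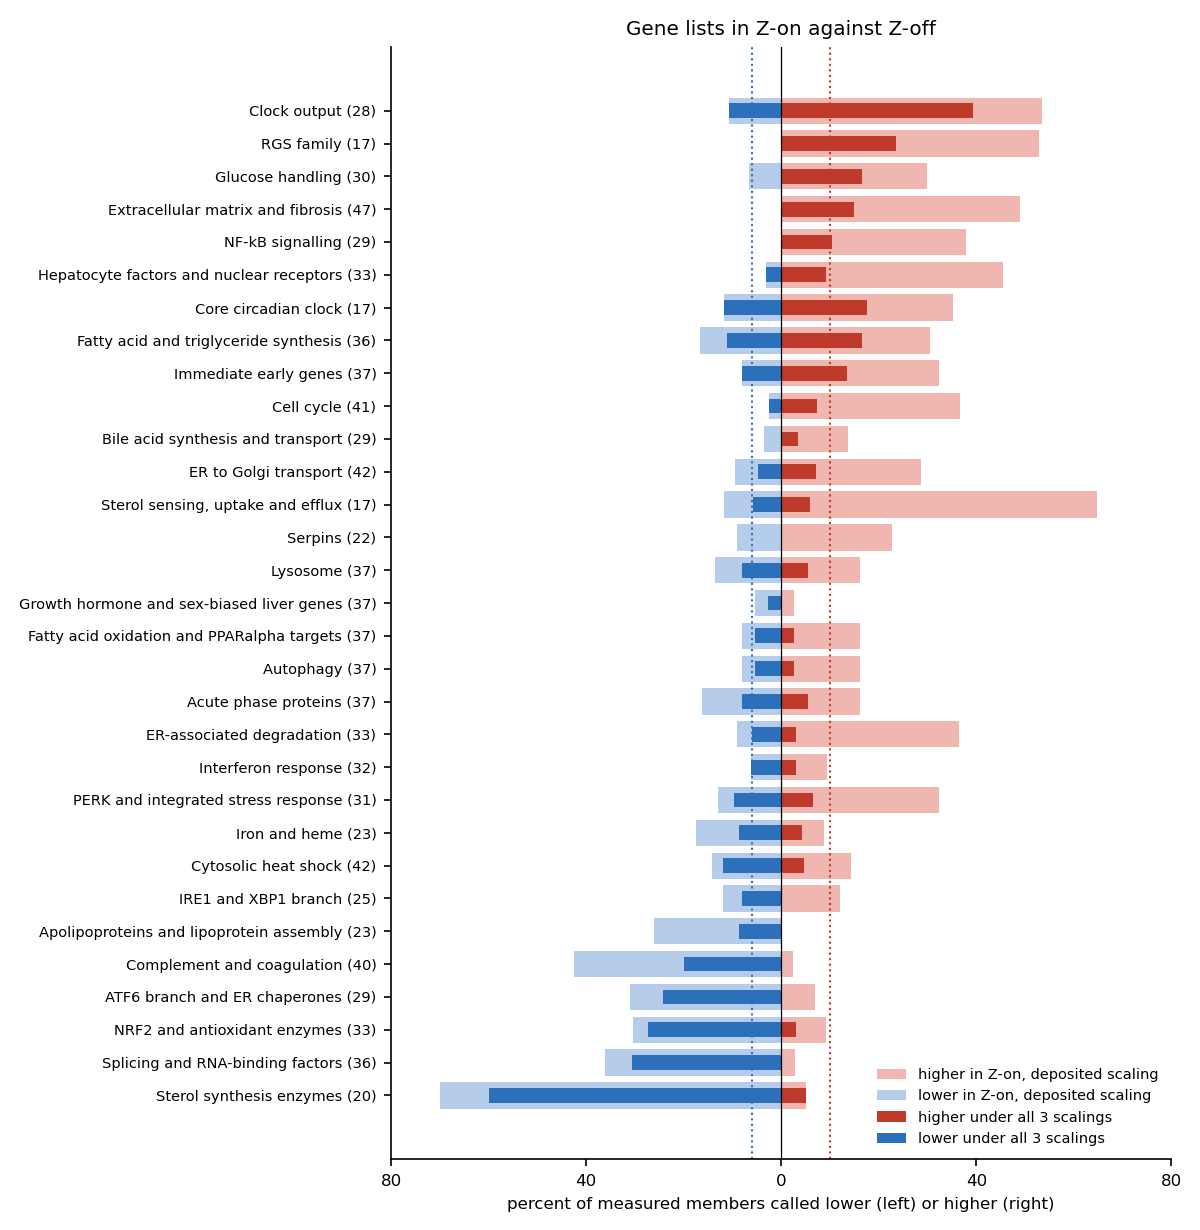
Percent of the measured members of each gene list (number in brackets) called higher, to the right, and lower, to the left, in Z-on minus Z-off, pale with the deposited scaling and dark under all 3 scalings. Dotted lines mark the shares of all genes called under all 3 scalings, 10.1% higher and 6.04% lower. The pale bars, and the percents given with each list, are read against 31.6% higher and 7.46% lower of all genes. In this plot sterol synthesis enzymes had 12 of 20 members lower under all 3 scalings and clock output genes 11 of 28 higher.

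Enzymes of cholesterol synthesis fell together in Z-on liver. Of 24 listed enzymes 20 were measured, and 1 rose (5%) and 14 fell (70%), against 1 and 13 after quantile normalization, 1 and 17 after centring and 1 and 12 under all 3 scalings. No single array moved these counts by over 1.5 times. The 14 falls are 70.0% of the list, against 7.46% of all genes, and the median log2 change of the list was -1.48, against 0.25 for all genes. In 14 of the 20 the Z-on arrays all lay below the Z-off arrays, against 12.7% of all genes.

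The promoter of Hmgcs1 is shown because, among the 11 fallen enzymes with a listed promoter, it alone held the letters TCACNCCAC, a sterol response element of the kind SREBP2 binds, in the window from 250 bases before to 50 after the start. It is chr13:119690101-119690400, plus strand, from RefSeq on GRCm38.p6, with the match in capitals and its first base at -137 from the start.
Hmgcs1: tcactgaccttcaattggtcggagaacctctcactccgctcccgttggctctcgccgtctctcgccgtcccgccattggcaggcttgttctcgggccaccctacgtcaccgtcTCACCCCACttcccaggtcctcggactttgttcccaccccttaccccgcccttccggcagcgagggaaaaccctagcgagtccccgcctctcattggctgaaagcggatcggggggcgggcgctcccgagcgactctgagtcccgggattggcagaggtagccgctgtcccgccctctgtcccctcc
On either strand this motif was found in 1 of the 11 fallen enzymes with a promoter (9.09%) and in 1.5% of 9887 tested genes with a promoter. The letters CCAAT, the box bound by the SREBP2 partner NF-Y, were found on either strand in 10 of the 11 (90.9%) and in 42.3% of the tested genes. A match describes letters in this window, and no match says only that they are not in it.

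In the first steps of the pathway, Hmgcs1, which condenses acetyl-CoA units toward mevalonate, read 865, 1457 and 391 on the Z-on arrays and 2618, 2552 and 2787 on the Z-off arrays. Every Z-on array lay below every Z-off array, with Z-on 3 lowest (log2 change -1.72, SE 0.48, adjusted p = 0.0119), and its other 3 probe sets gave -2.37, -2.16 and -1.56. Mvk, the kinase that phosphorylates mevalonate, read 12.8, 29.5 and 2.0 against 78.8, 80.7 and 99, so 2 of the 3 Z-on arrays lay under 16 (log2 change -1.83, SE 0.26, adjusted p = 0.000142). Pmvk, the next kinase, read 61.4, 52 and 63.3 against 226, 208 and 184 and was separated without overlap (log2 change -1.56, adjusted p = 3.45e-05). Mvd, which makes isopentenyl diphosphate, read 24.1, 63.3 and 47.1 against 72.7, 50.4 and 102, overlapped between the groups and did not pass (log2 change -0.60, adjusted p = 0.141). Idi1, the isomerase of that product, read 191, 357 and 132 against 1123, 889 and 1493, with every on array below the off arrays (log2 change -2.36, SE 0.41, adjusted p = 0.000555). Fdps, which joins the isoprene units into farnesyl diphosphate, read 231, 382 and 206 against 1009.6, 898 and 1049.9 (log2 change -1.84, SE 0.31, adjusted p = 0.000425), although its other probe set changed by 0.05 and did not pass. Thus Hmgcs1, Mvk, Pmvk, Idi1 and Fdps each lay wholly below their off levels. The call of Hmgcs1 did not survive the loss of Z-on 3 (adjusted p = 0.0627).

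Past the branch point the sterol-specific steps also fell. Fdft1, squalene synthase, read 242, 230.2 and 203 on the Z-on arrays and 660.2, 599.7 and 815 on the Z-off arrays (log2 change -1.55, SE 0.19, adjusted p = 5.48e-05), but its other 2 probe sets rose, by 0.98 and 0.57. Sqle, squalene epoxidase, read 61.1, 112 and 72.4 against 236, 154 and 308 and did not overlap (log2 change -1.33, adjusted p = 0.00315). Cyp51, the lanosterol demethylase, read 68.2, 120.4 and 83.9 against 557, 438 and 542 and had the lowest adjusted p of the list (log2 change -2.33, SE 0.21, adjusted p = 1.11e-05), with -2.03 and -0.86 on its other probe sets. Tm7sf2, a sterol reductase, read 443, 408 and 401 against 1250.2, 1360.1 and 1172 and did not overlap either (log2 change -1.56, adjusted p = 1.74e-05). Msmo1, a methyl sterol oxidase, read 529, 1066 and 318 against 1492, 1233 and 2002, with Z-on 2 close to the lowest off array (log2 change -1.42, adjusted p = 0.00543). Sc5d, a desaturase of a late step, read 478, 529 and 323 against 1868, 1299.6 and 1772 (log2 change -1.87, adjusted p = 0.000752). Dhcr7, the reductase that finishes cholesterol, read 178, 187 and 81 against 625, 529.6 and 521, and no array of Z-on reached the off range in it (log2 change -1.87, adjusted p = 0.000246). Ebp (log2 change -0.54) and Erg28 (-0.48) fell less, and neither was called after quantile normalization. Without any 1 of Z-off 2, Z-off 3, Z-on 1 and Z-on 3, Erg28 did not pass (adjusted p up to 0.104). Lss, which closes the sterol ring, read 141, 171 and 144 against 157, 129.9 and 136 and did not pass (log2 change 0.10, adjusted p = 0.666). Hsd17b7 was the 1 rise in the list, read 234, 223 and 275 against 87.1, 80.4 and 123 (log2 change 1.22, SE 0.21, adjusted p = 0.000546), and its other probe set gave 1.19. Ggps1, Nsdhl and Lbr did not pass (adjusted p = 0.308, 0.208 and 0.22).

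**Figure D3:**
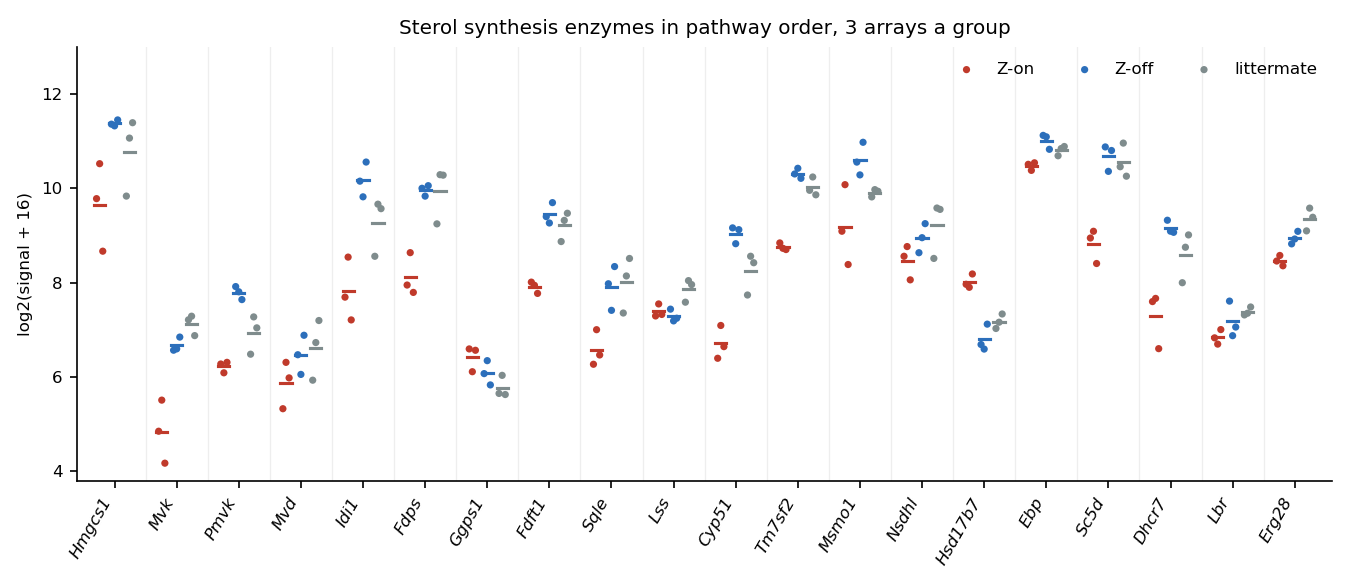
Log2 of signal plus 16 for each sterol synthesis enzyme in pathway order, 1 point per array and a bar at the mean of each group of 3 (Z-on red, Z-off blue, littermate grey). For most enzymes from Hmgcs1 to Dhcr7 the red points lie below the blue ones, and those of Hsd17b7 lie above.

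Both contrasts with littermates, which drank no doxycycline either, share arrays with Z-on minus Z-off, so they are set side by side as values only. In Z-on minus littermate, where 7.31% of all genes were higher, 4.63% lower and 11.9% called in all, 11 of the 20 enzymes were lower and 1 higher. In Z-off minus littermate, where 4.03% were higher, 20.1% lower and 24.2% called, 1 was lower and 2 higher. Fdps read 592, 1237 and 1228 in littermates, and its change was -1.81 from littermate to Z-on and 0.03 from littermate to Z-off. Sc5d gave -1.75 and 0.12, Mvk -2.28 and -0.46, and Sqle -1.42 and -0.09 in the same order. For these 4 the littermates were thus nearer to Z-off. Pmvk lay between, with Z-off 0.86 above littermates (adjusted p = 0.00432) and a Z-on change of -0.71, and so did Cyp51, with Z-off 0.80 above (adjusted p = 0.0151) and a Z-on change of -1.53.

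In the line with the wild type human protein fewer of these enzymes were lower and more were higher. M-on minus M-off shares no array with Z-on minus Z-off, and 37.9% of all genes were higher in it, 12.4% lower and 50.3% called in all (26.9% higher and 11.3% lower without M-on 1 and M-on 2). Of the 20 sterol enzymes 6 were higher and 2 lower there (5 and 3 without those arrays). Mvk read 208, 227 and 295 on M-on and 111, 87.7 and 92.2 on M-off arrays and rose (log2 change 1.19, adjusted p = 0.00179, or 1.47 and 0.00965 without those arrays). Sqle read 842, 1022 and 879.8 and 421, 272 and 302 and rose too (1.44, adjusted p = 0.0013, or 1.39 and 0.0295). Both therefore rose with M and fell with Z. Idi1 and Tm7sf2 were the 2 that fell in both lines, with M changes of -1.11 and -0.91 (-1.56 and -0.54 without those arrays, both still called). The difference of Tm7sf2 between the lines did not pass (-0.65, adjusted p = 0.196), and was -1.02 with M-on 3 as the only M-on array.

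A difference between the lines in their on-off change, the interaction of the same limma fit, was called for 7 of the 20 enzymes, all more negative with Z, against 0.307% of all genes higher, 0.307% lower and 0.613% in either direction. Mvk differed by -3.02 (adjusted p = 0.00623), Sqle by -2.77 (0.0199) and Cyp51 by -2.47 (0.00623). Fdps differed by -2.27 (0.0422), Dhcr7 by -2.08 (0.0425), Fdft1 by -1.77 (0.0197) and Pmvk by -1.27 (0.0454). The count was 7 after quantile normalization and after centring, 8 with a constant of 64 or with an intensity trend, 9 without dim genes and 11 with array weights, but 3 with a constant of 1 and 4 with the replicate block. It was 10 without M-on 1 and M-on 2, where 5.37% of all genes were called higher and 1.18% lower, and each of the 7 passed there too, with Mvk at -3.29 (adjusted p = 0.00116) and Cyp51 at -2.48 (0.0022). Single arrays moved it as well, to 10 without M-on 1, to 4 without Z-on 1, Z-on 3, Z-off 1 or M-off 1, to 3 without Z-off 2, and to 2 without M-on 2, M-off 2 or M-off 3. Cyp51 and Mvk were called with any 1 of the 12 arrays of both lines left out, and Mvk was not with a constant of 1. The other members lost the call without some of these arrays, Sqle without M-on 2, M-off 2 or M-off 3, and Fdft1 without those or Z-off 2 (adjusted p up to 0.0828 for both). Fdps was called in 3 of these 12 fits, Pmvk in 2 and Dhcr7 in 1, and none of these 3 genes was called with a constant of 1 or with the replicate block.

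**Figure D4:**
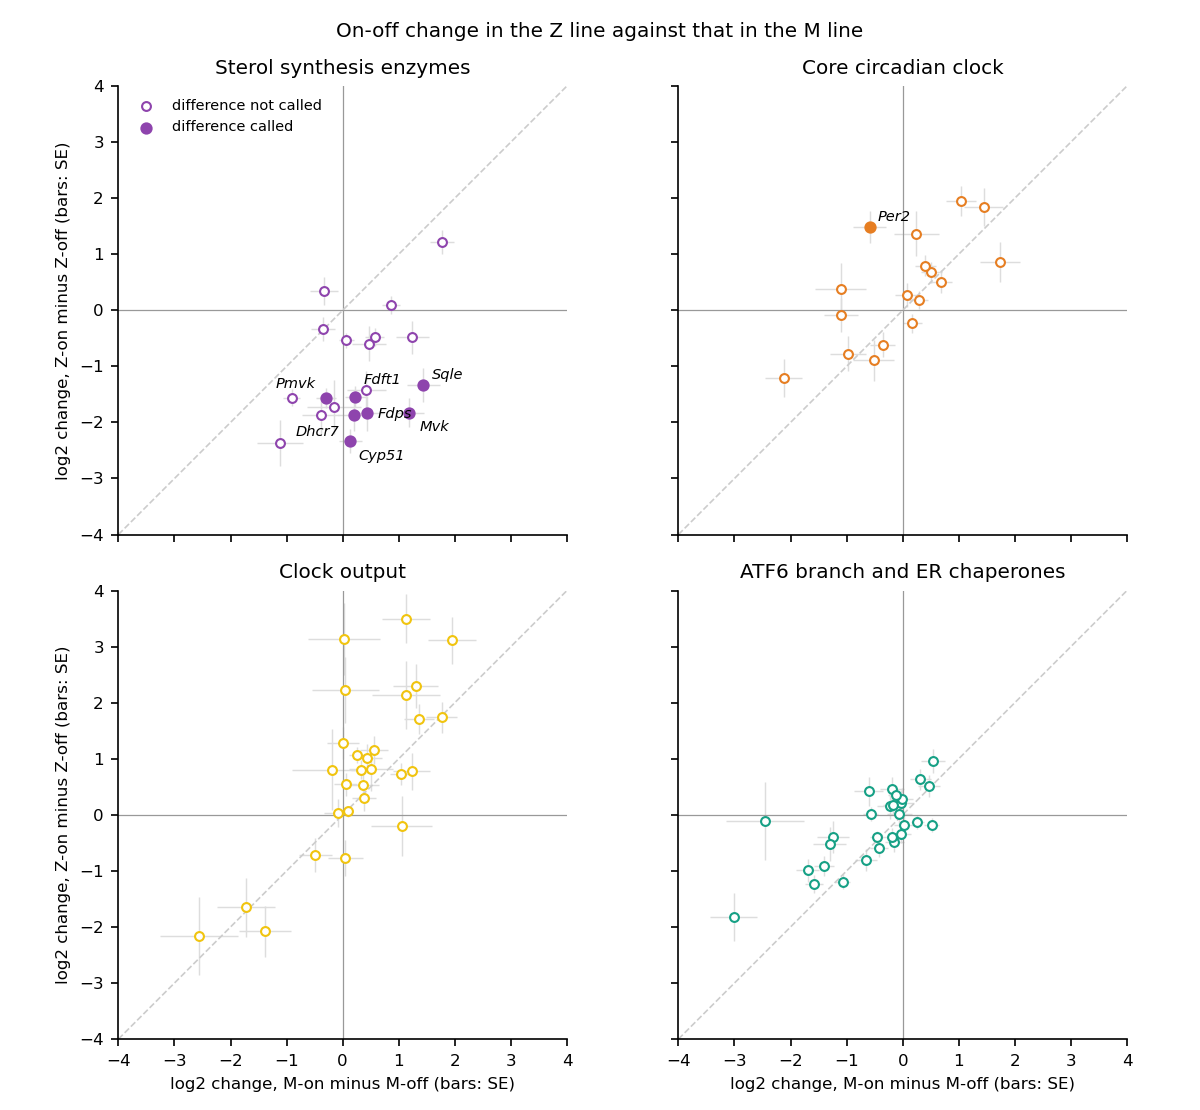
Log2 change in the M line (M-on minus M-off, horizontal) against that in the Z line (Z-on minus Z-off, vertical) for 4 gene lists, 1 point per gene with SE bars, filled where the difference between the lines was called, and a dashed line of equal change. The 7 filled sterol enzymes lie below the dashed line, and Per2 is the 1 filled clock gene.

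Among genes that sense, import and export sterols, more were higher than lower with the deposited signals and fewer after centring. Of 17 measured, 11 rose (64.7%) and 2 fell (11.8%), against 9 and 1 after quantile normalization, 1 and 4 after centring and 1 and 1 under all 3 scalings. With 1 array left out, the 11 rises became 6 without Z-on 1, and the 2 falls became 1 without Z-off 1. Mylip, a ubiquitin ligase that degrades the LDL receptor, read 186, 194 and 213 on the Z-on arrays and 51.3, 59.1 and 88.3 on the Z-off arrays. It was separated without overlap and was the rise of this list called under all 3 scalings (log2 change 1.40, SE 0.21, adjusted p = 0.000207). Srebf2, which encodes SREBP2 itself, read 143, 114 and 162 against 44.9, 100.2 and 68.5 and rose (log2 change 0.87, adjusted p = 0.00569). Srebf1, the paralogue that drives lipogenesis, read 1855, 1347 and 1409 against 759, 748 and 992 and rose as well (log2 change 0.87, adjusted p = 0.0071). Scarb1, the hepatic HDL receptor, read 1267, 1184 and 1063 against 566, 634 and 785 and did not overlap (log2 change 0.82, adjusted p = 0.000841). Abcg5 and Abcg8, the pair that pumps sterols into bile, rose by 0.88 and 0.68, and Npc1 and Npc2, which move cholesterol out of lysosomes, by 0.65 and 0.86. Nr1h3, the oxysterol receptor LXRα, read 188, 182 and 159 against 272, 278 and 248 and fell under all 3 scalings (log2 change -0.55, adjusted p = 0.0102). Insig2, an anchor of the SREBP complex, did not pass (log2 change -0.72, adjusted p = 0.0714) but was above littermates in Z-off (1.23, adjusted p = 0.0102). After quantile normalization Npc1 was not called, and after centring Srebf2, Srebf1, Scarb1, Abcg5, Abcg8, Npc1 and Npc2 were not called. Omitting any 1 of Z-off 3, Z-on 1 and Z-on 3 took the adjusted p of Abcg5 above the threshold (up to 0.087). Leaving out Z-on 1 ended the call of Abcg8 (adjusted p = 0.0679). The call of Npc1 did not survive the loss of any 1 of Z-off 1, Z-off 2 and Z-on 1 (adjusted p up to 0.186).

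Fatty acid and triglyceride genes split by step. Over the 36 measured, 11 rose (30.6%) and 6 fell (16.7%), against 10 and 4 after quantile normalization, 6 and 11 after centring and 6 and 4 under all 3 scalings. Leaving out single arrays, the 6 falls became 2 without Z-on 3 and 3 without Z-off 1. Among 18 genes of fatty acid synthesis 3 rose and 6 fell, and among 18 of triglyceride synthesis 8 rose and none fell. Lpin1, a phosphatidate phosphatase, read 1075, 409.8 and 1221 against 76, 98.3 and 113, and littermates at 867, 297 and 374 lay far above the off arrays (log2 change 2.91, adjusted p = 9.99e-05). Lpin2, its paralogue, read 1221, 758 and 1256 against 308, 512 and 452 (log2 change 1.31, adjusted p = 0.000449). Agpat1 and Mogat1, acyltransferases of the same route, rose by 1.36 and 1.48 under all 3 scalings. Elovl3, a fatty acid elongase, read 580.4, 1071 and 352 against 2775, 3281 and 2287 and fell (log2 change -2.16, adjusted p = 0.0243). Elovl2, which elongates polyunsaturated chains, read 1123, 1018 and 1083 against 3076, 2765 and 1972 and fell without overlap (log2 change -1.24, adjusted p = 0.000204). Both were above littermates in Z-off, by 2.69 and 0.94 (adjusted p = 0.0132 and 0.00323), and their Z-on changes from littermates were 0.53 and -0.30. Scd1, the stearoyl desaturase, read 4796, 2166 and 3625 against 8385, 5582 and 5146 (log2 change -0.89, adjusted p = 0.0284). The call of Scd1 was lost after quantile normalization. Without any 1 of Z-off 1, Z-off 2, Z-on 1 and Z-on 3, Elovl3 did not pass (adjusted p up to 0.0988). When any 1 of Z-off 1, Z-on 2 and Z-on 3 was omitted, Scd1 missed the threshold (adjusted p up to 0.135).

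Of 37 measured genes of fatty acid oxidation, 6 rose (16.2%) and 3 fell (8.11%), against 11 and 3 after quantile normalization, 1 and 13 after centring and 1 and 2 under all 3 scalings. Where 1 array was omitted, the 3 falls became 1 without Z-off 1. Pex11a, a peroxisome proliferation factor, read 842, 720.2 and 1189.7 against 230.1, 295 and 344 and was the rise called under all 3 scalings (log2 change 1.60, SE 0.19, adjusted p = 4.89e-05). Ppara, the receptor that drives this list, read 1169, 899 and 1059 against 435, 618 and 611 (log2 change 0.90, adjusted p = 0.00136). Its target Cpt1a, the gate of mitochondrial import, read 1444, 1307 and 1694 against 776, 842 and 889 and did not overlap (log2 change 0.81, adjusted p = 0.00217). Acaa2, a mitochondrial thiolase, read 1491, 2338 and 1446 against 3541, 3520.2 and 3993 and fell (log2 change -1.09, adjusted p = 0.000332). It rose with M (0.48, adjusted p = 0.0354, or 0.62 and 0.0635 without M-on 1 and M-on 2), and the difference was called (-1.57, adjusted p = 0.0237, or -1.72 and 0.00441 without those arrays). The call of this difference was lost when any 1 of Z-off 2, M-on 2, M-off 1, M-off 2 and M-off 3 was left out (adjusted p up to 0.0828). Pdk4, the fasting-induced inhibitor of pyruvate dehydrogenase, read 8.3, 29.1 and 17.9 against 104, 129 and 26.9, with Z-off 3 inside the Z-on range (log2 change -1.45, adjusted p = 0.0113). Centring ended the calls of Ppara and Cpt1a. Omitting Z-off 1 or Z-off 2 took the adjusted p of Pdk4 above the threshold (up to 0.0574).

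Of 30 measured genes of glucose handling and insulin or glucocorticoid response, 9 rose (30%) and 2 fell (6.67%), against 9 and 0 after quantile normalization, 5 and 7 after centring and 5 and 0 under all 3 scalings. By omission of 1 array, the 2 falls became 1 without Z-on 1 or Z-off 2 and 0 without Z-on 2, Z-on 3 or Z-off 1. Insr, the insulin receptor, read 73.6, 66 and 78.5 on the Z-on arrays and 8.0, 17.9 and 2.0 on the Z-off arrays and was under 18 on every off array (log2 change 1.86, SE 0.20, adjusted p = 2.09e-05), while its other probe set gave 0.69. Pfkfb3, which makes the activator of glycolysis fructose 2,6-bisphosphate, read 95, 32.4 and 137 against 5.6, 4.0 and 25.4 (log2 change 1.84, adjusted p = 0.00119). Its difference from the M line was called (2.52, adjusted p = 0.0454), but not without M-on 1 and M-on 2 (2.38, adjusted p = 0.0528). This difference missed the threshold when any 1 array other than Z-on 2, Z-off 3, M-on 1 or M-on 3 was omitted (adjusted p up to 0.115) or with a constant of 1, a constant of 64 or the replicate block. Gys2, liver glycogen synthase, read 851, 528 and 1039 against 227, 259 and 508 (log2 change 1.28, adjusted p = 0.00325). Fkbp5, a glucocorticoid target, read 178, 180.1 and 370.1 against 71.9, 81.4 and 115 (log2 change 1.23, adjusted p = 0.00184). Slc37a4, the glucose 6-phosphate transporter, read 1470.5, 1187 and 1819.6 against 546, 684 and 1030.1 and rose too (log2 change 1.00, adjusted p = 0.00326). For Gys2, Fkbp5 and Slc37a4 the Z-on change from littermates was 0.20, 0.26 and -0.21, none called, and the Z-off change was -1.08, -0.97 and -1.21, each called lower. After centring Slc37a4 was not called.

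Clock output genes rose more often than all genes, while core clock genes were called at shares near those of all genes (31.6% higher and 7.46% lower). Array Z-off 3 stood apart from the other 2 off arrays in several clock genes. Of 17 core clock genes measured, 6 rose (35.3%) and 2 fell (11.8%), against 4 and 4 after quantile normalization, 3 and 5 after centring and 3 and 2 under all 3 scalings. Among fits without 1 array, the 2 falls became 1 without Z-on 1, Z-on 2, Z-off 1 or Z-off 2 and 4 without Z-off 3. Of 28 clock output genes, 15 rose (53.6%) and 3 fell (10.7%), against 16 and 4 after quantile normalization, 11 and 6 after centring and 11 and 3 under all 3 scalings, with a median change of 0.81. When 1 array was dropped, the 3 falls became 1 without Z-on 1 or Z-off 2. Liver rhythms follow the hour of sampling, which the labels do not state, so an effect of the groups and of the hour cannot be told apart.

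The promoters of Per1, Tef and Per3 are shown from the RefSeq window on GRCm38.p6, with letters through which the clock acts in capitals. Of the called clock genes that hold such letters there, these 3 had the largest absolute change. All 3 rose in every scaling. CACGTG is the E-box bound by the Clock and Arntl pair, and TTANGTAA the D-box bound by Dbp, Tef and Hlf. Per1 is at chr11:69098699-69098998 (plus strand, E-box first base at -166 from the start), Tef at chr15:81802423-81802722 (plus strand, -127) and Per3 at chr4:151044616-151044915 (minus strand, 2 D-boxes at -205 and -158).
Per1: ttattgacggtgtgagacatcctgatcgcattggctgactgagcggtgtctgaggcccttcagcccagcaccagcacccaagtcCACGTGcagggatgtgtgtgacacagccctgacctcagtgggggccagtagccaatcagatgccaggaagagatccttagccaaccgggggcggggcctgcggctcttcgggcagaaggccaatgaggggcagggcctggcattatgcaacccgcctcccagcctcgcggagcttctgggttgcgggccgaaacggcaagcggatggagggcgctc
Tef: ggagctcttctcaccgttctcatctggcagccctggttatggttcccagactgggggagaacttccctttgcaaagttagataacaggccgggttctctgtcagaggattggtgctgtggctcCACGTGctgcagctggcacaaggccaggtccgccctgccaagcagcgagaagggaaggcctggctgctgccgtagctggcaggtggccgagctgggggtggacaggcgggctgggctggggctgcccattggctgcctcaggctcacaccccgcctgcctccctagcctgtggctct
Per3: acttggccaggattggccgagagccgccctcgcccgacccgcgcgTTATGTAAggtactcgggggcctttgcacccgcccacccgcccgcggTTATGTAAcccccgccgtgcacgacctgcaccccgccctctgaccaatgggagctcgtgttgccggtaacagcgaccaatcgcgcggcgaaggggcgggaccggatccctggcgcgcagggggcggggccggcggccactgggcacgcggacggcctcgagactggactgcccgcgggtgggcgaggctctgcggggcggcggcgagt
Read on either strand, an E-box was found in 3 of the 16 clock genes that rose and have a promoter (18.8%) and in 10.8% of tested genes. A D-box was found in 1 of the 16 (6.25%) and in 2.08% of tested genes. These matches describe letters in the window only.

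Among the repressors, Per1 read 96.7, 54.4 and 119 on the Z-on arrays and 12.9, 3.2 and 17.7 on the Z-off arrays (log2 change 1.95, adjusted p = 0.00012). Per2 read 89.3, 67.6 and 125 against 23.7, 7.7 and 44 (log2 change 1.49, adjusted p = 0.00119) and Per3 124, 86.7 and 149 against 10.4, 11.7 and 54.2 (log2 change 1.84, adjusted p = 0.000941). None of the 3 overlapped between the groups, and the other Per3 probe sets gave 0.26 and 1.28. Cry1 read 31, 29.8 and 65.8 against 93.2, 104 and 50.9, higher on Z-off 1 and Z-off 2 than on any Z-on array, and did not pass (log2 change -0.77, adjusted p = 0.0709), nor did Cry2 (log2 change 0.27, adjusted p = 0.341). Of the activators, Clock read 39.9, 73.7 and 46.6 against 151, 132 and 141 and fell (log2 change -1.21, adjusted p = 0.0114), although its other probe set changed by 0.01. Arntl read 21.9, 42.3 and 35.8 against 114, 107 and 29.6, so Z-off 1 and Z-off 2 lay above and Z-off 3 within the Z-on range (log2 change -0.89, adjusted p = 0.0668). Bhlhe40, a repressor of the clock, read 405, 453 and 424 against 113, 81.6 and 389.9, where Z-off 3 again lay close to the Z-on arrays (log2 change 1.36, adjusted p = 0.0158). Nr1d1, the heme-binding repressor Rev-erbα, read 215, 222 and 136 against 70.8, 82.6 and 147 and did not pass (log2 change 0.86, adjusted p = 0.0689). The call of Bhlhe40 was lost after centring. The call of Bhlhe40 did not survive the loss of Z-off 1 or Z-off 2 (adjusted p up to 0.0796).

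The output factors showed the same array. Dbp read 1078, 635 and 769 on the Z-on arrays and 81.6, 65 and 815 on the Z-off arrays, so Z-off 3 fell inside the Z-on range while the other 2 off arrays were lower than every Z-on array (log2 change 2.14, adjusted p = 0.0126). Its antagonist Nfil3 read 57.3, 42.7 and 117 against 337, 403 and 104 and was the mirror image, with Z-off 3 again inside the Z-on range (log2 change -1.65, adjusted p = 0.0231). Tef, a relative of Dbp, read 996, 589.6 and 1044 against 189, 197 and 409 (log2 change 1.71, adjusted p = 0.000276). Hlf, the remaining relative, was separated without overlap at 268, 259.7 and 309 against 118, 128 and 129 (log2 change 1.06, adjusted p = 0.000103). Of the other clock output genes, Usp2, a deubiquitinase, read 519.7, 227 and 444 against 34.9, 4.7 and 72.3 and was over 3 times its highest off signal on every on array (log2 change 3.11, adjusted p = 0.000114). Noct, a rhythmic NADP(H) phosphatase, read 525, 294 and 631 against 54.5, 11.8 and 65.4 (log2 change 3.14, adjusted p = 0.00168). Wee1, a brake on mitosis, read 190.4, 105 and 262 against 30.2, 45.8 and 48.8 (log2 change 1.74, adjusted p = 0.000303). Alas1, the first enzyme of heme synthesis, read 2187, 1673 and 3045 against 1704, 138 and 402, with Z-off 1 inside the Z-on range (log2 change 2.23, adjusted p = 0.00889). St3gal5, which makes the ganglioside GM3, read 464, 499 and 1048 against 130.3, 76.3 and 147 and did not overlap (log2 change 2.30, adjusted p = 0.000534). Tubb2a, a tubulin, read 107, 521 and 141 against 1297, 1192 and 479.5 and fell (log2 change -2.08, adjusted p = 0.00295), with Z-off 3 below Z-on 2. Without Z-off 1 or Z-off 2, Dbp did not pass (adjusted p up to 0.0644). When any 1 of Z-off 1, Z-off 2, Z-on 1 and Z-on 2 was omitted, Nfil3 missed the threshold (adjusted p up to 0.0987).

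**Figure D5:**
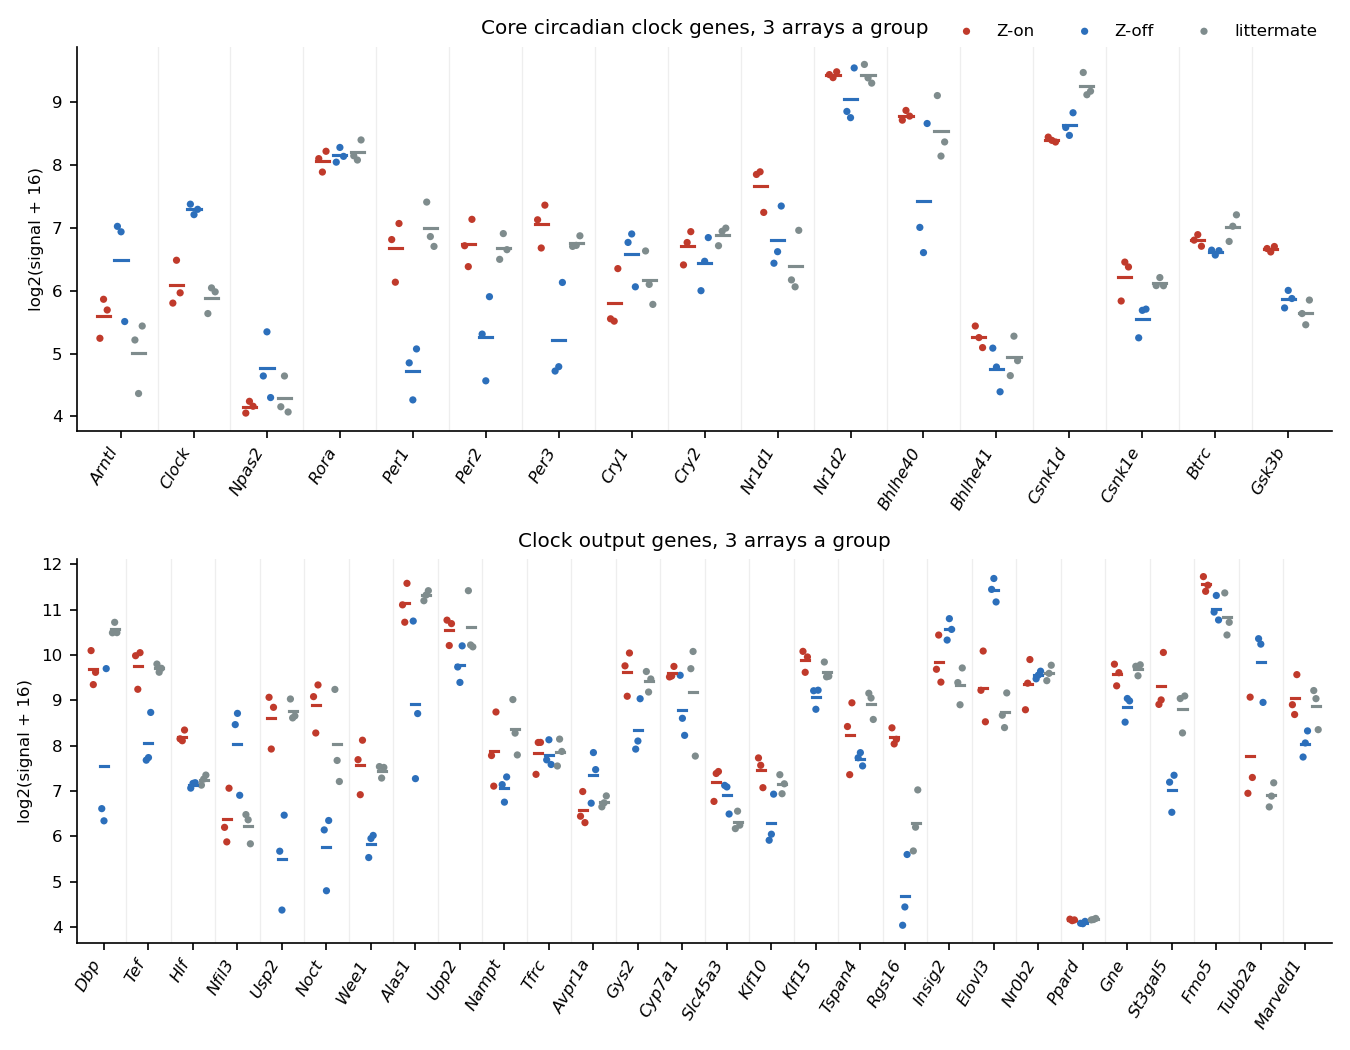
Log2 of signal plus 16 for core clock genes (top) and clock output genes (bottom), 1 point per array and a bar at the mean of each group of 3 (Z-on red, Z-off blue, littermate grey). For Dbp, Bhlhe40 and Nfil3 1 blue point, Z-off 3, lies with the red points and away from the other 2.

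Littermates, set beside both groups as values only, gave few calls against Z-on and more against Z-off, as over all genes (11.9% and 24.2% called). In Z-on minus littermate 2 core clock genes were higher and 1 lower, and 4 output genes higher and none lower. In Z-off minus littermate 2 of 17 core genes were higher and 5 lower, and 4 of 28 output genes higher and 15 lower. The share of output genes lower in Z-off was thus above that of all genes. Per1 read 154, 100.5 and 88.5 in littermates, and changed by -0.32 in Z-on and -2.26 in Z-off. Usp2 read 506, 375 and 387 and changed by -0.15 and -3.26, and Dbp read 1421, 1670.5 and 1424 and changed by -0.88 and -3.02. All 3 were called lower in Z-off. With M, Per1 and Per3 rose (1.03 and 1.44) and Clock fell (-2.12). Without M-on 1 and M-on 2 Clock was still called (-2.47), but Per1 and Per3 were not (0.76 and 0.82, adjusted p = 0.137 and 0.158). Per2 did not pass with M (-0.59, adjusted p = 0.0996), and its difference between the lines was called with and without those arrays (2.08 and 2.46, adjusted p = 0.0425 and 0.0105). The difference was no longer called after any 1 array other than Z-off 3 or M-on 1 was dropped (adjusted p up to 0.1) or with a constant of 1 or the replicate block. Noct did not pass with M (0.02), and the difference of 3.11 did not pass (adjusted p = 0.134). It read 337.9, 419.5 and 58.4 on M-on arrays. Without M-on 1 and M-on 2 its M change was -1.58 and the difference 4.71, from M-on 3 alone.

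Regulators of G protein signalling shorten signals from receptors. Their rises are read against 31.6% of all genes, 52.7% of signal group 2 and 45.6% of group 3. Of 17 measured, 9 rose (52.9%) and 0 fell (0%), against 5 and 0 after quantile normalization, 4 and 0 after centring and 4 and 0 under all 3 scalings. These counts moved by at most 1.5 times without any 1 array. Rgs16, a rhythmic liver gene of fatty acid control, read 319.9, 247 and 266 on the Z-on arrays and 0.4, 5.7 and 32.4 on the Z-off arrays. Every on array was over 7 times the highest off array (log2 change 3.50, adjusted p = 6.21e-05), and its other probe sets gave 3.41 and 2.57. Rgs14 read 81.9, 109.6 and 130.4 against 12.4, 26.8 and 41.3 (log2 change 1.56, adjusted p = 0.000607) and Rgs9, known from retina and brain, 100, 103 and 137 against 26.7, 27.1 and 33.4 (log2 change 1.51, adjusted p = 0.000193). Rgs10 read 68.5, 77.2 and 94.9 against 26.1, 37.3 and 30.9 and was the last of the 4 called under all 3 scalings (log2 change 1.02, adjusted p = 7.34e-05). Rgs1, Rgs3, Rgs4, Rgs8 and Rgs17 rose by 0.72 to 1.05. Over all genes 37.9% were higher in M-on minus M-off. With M 9 rose as well (6 without M-on 1 and M-on 2), among them Rgs16 (1.13), which did not pass without those arrays (0.45, adjusted p = 0.548). It differed between the lines by 2.37, which did not pass (adjusted p = 0.0988), and by 3.05 with M-on 3 as the only M-on array. After quantile normalization Rgs1, Rgs4, Rgs8 and Rgs17 were not called, and after centring Rgs1, Rgs3, Rgs4, Rgs8 and Rgs17 were not called. Without Z-off 1, Rgs3 did not pass (adjusted p = 0.0532). When any 1 of Z-off 1, Z-off 2, Z-on 2 and Z-on 3 was omitted, Rgs4 missed the threshold (adjusted p up to 0.0938). Omitting any 1 of Z-off 2, Z-off 3 and Z-on 2 took the adjusted p of Rgs8 above the threshold (up to 0.063).

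ER stress genes showed no common rise. The response has 3 branches, through the sensors PERK, IRE1 and ATF6. In the PERK branch and the wider integrated stress response, of 31 genes, 10 rose (32.3%) and 4 fell (12.9%), against 4 and 4 after quantile normalization, 2 and 11 after centring and 2 and 3 under all 3 scalings. In fits short of 1 array, the 10 rises became 6 without Z-on 3 and 4 without Z-off 1, and the 4 falls became 2 without Z-on 3 or Z-off 1 and 1 without Z-off 2. Trib3, a target of the branch, read 104, 91.6 and 82.4 against 26, 41.4 and 53.8 (log2 change 0.97, adjusted p = 0.00891). Phgdh, which starts serine synthesis, read 136, 121 and 216 against 9.3, 46.4 and 68.3 (log2 change 1.73, adjusted p = 0.00623). Atf5 read 462, 492 and 447 against 1247, 1126 and 600.2 and fell, with Z-off 3 nearest to the on arrays (log2 change -0.99, adjusted p = 0.0183). Ddit3, the death-promoting factor of the branch, read 53.2, 59.5 and 78.2 against 87.6, 53.1 and 59.3 and did not pass (log2 change -0.04, adjusted p = 0.865). In the IRE1 branch, of 25 genes, 3 rose (12%) and 3 fell (12%), against 5 and 2 after quantile normalization, 0 and 7 after centring and 0 and 2 under all 3 scalings. Omission of any 1 array moved them by at most 1.5 times. Ern1, which encodes IRE1α, read 40.4, 37.3 and 54.7 against 22.5, 19.9 and 25 (log2 change 0.64, adjusted p = 0.0477). Kdelr2, a retrieval receptor of ER proteins, read 617, 652 and 671 against 1434, 1422 and 1257 and fell without overlap (log2 change -1.06, adjusted p = 5.48e-05), but its other probe set changed by -0.08 and did not pass. Sec63 of the translocon read 325, 334 and 291 against 508, 524 and 475 and fell as well (log2 change -0.64, adjusted p = 0.00219). Trib3 and Ern1 were called neither after quantile normalization nor after centring. Leaving out any 1 of Z-off 1, Z-off 2 and Z-on 3 ended the call of Atf5 (adjusted p up to 0.0837). The call of Ern1 did not survive the loss of any 1 of the 6 arrays (adjusted p up to 0.164).

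ER chaperones that changed were mostly lower when Z was on. Of 29 genes of the ATF6 branch and ER folding, 2 rose (6.9%) and 9 fell (31%), against 1 and 8 after quantile normalization, 0 and 17 after centring and 0 and 7 under all 3 scalings. With 1 array left out, the 2 rises became 1 without Z-on 3. Canx, the lectin chaperone calnexin, read 863, 1050.2 and 1090.2 on the Z-on arrays and 2364, 2392 and 2142 on the Z-off arrays and was separated without overlap (log2 change -1.19, SE 0.14, adjusted p = 3.86e-05). Pdia3, the disulphide isomerase that works with it, read 768, 933 and 962 against 2249.7, 2106 and 1942 (log2 change -1.23, adjusted p = 6.91e-05). Hsp90b1, the ER form of Hsp90, read 1059.8, 1361 and 1444 against 2787, 2392 and 2499.7 (log2 change -0.99, adjusted p = 0.0019). Sdf2l1, a partner of the chaperone Hspa5, read 84.6, 96.9 and 132 against 559, 476 and 252, with Z-off 3 the lowest of the off arrays (log2 change -1.83, adjusted p = 0.00404). Pdia4 fell by the probe set used (log2 change -0.92), but its other probe set rose by 0.80. Creb3l2 and Ero1a, a stress transducer and the oxidase of the ER, rose by 0.96 and 0.63. Hspa5 itself read 2371, 2609 and 4219.8 against 4636, 3836 and 3351 and did not pass (log2 change -0.40, adjusted p = 0.295), falling only after centring (-0.85, adjusted p = 0.0237). With M 12 of the 29 were lower and 1 higher (5 and 1 without M-on 1 and M-on 2), and Canx, Pdia3 and Sdf2l1 fell, with changes of -1.07, -1.58 and -3.02 (-1.0, -1.31 and -2.90 without those arrays). Over all genes 37.9% were higher and 12.4% lower with M. Quantile normalization ended the call of Ero1a, and centring those of Creb3l2 and Ero1a. Without Z-off 2 or Z-on 3, Ero1a did not pass (adjusted p up to 0.0845).

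Of 33 genes of ER-associated degradation, 12 rose (36.4%) and 3 fell (9.09%), against 7 and 2 after quantile normalization, 1 and 12 after centring and 1 and 2 under all 3 scalings. Leaving out single arrays, the 12 rises became 7 without Z-on 3, Z-off 1 or Z-off 3, and the 3 falls became 1 without Z-on 2. Herpud1, a scaffold of the degradation complex, read 2269.5, 2265 and 3236 on the Z-on arrays and 1422, 957 and 1245 on the Z-off arrays and was the rise of this list called under all 3 scalings (log2 change 1.09, adjusted p = 0.00109). Its change with M was -0.35, and the difference between the lines was called (1.44, adjusted p = 0.0454), but not without M-on 1 and M-on 2 (1.20, adjusted p = 0.0579). The call of this difference was lost when any 1 array other than M-on 1 or M-on 3 was left out (adjusted p up to 0.113) or with a constant of 1, the replicate block or centring. Syvn1, the ubiquitin ligase Hrd1, read 348, 435 and 904 against 221, 210.5 and 193, with Z-on 3 far above the rest (log2 change 1.25, adjusted p = 0.0282). Os9, the lectin that delivers glycoproteins to it, read 764, 678 and 823 against 408, 550.4 and 383 (log2 change 0.75, adjusted p = 0.00416). Derl1, a channel protein, read 395, 482 and 341 against 573, 680.4 and 712 and fell (log2 change -0.68, adjusted p = 0.00856), while another of its probe sets rose. In littermates Herpud1 read 3342, 2432 and 2328, Syvn1 244, 503 and 946 and Os9 517, 506 and 609, and none of the 3 was called in Z-on minus littermate. After centring Syvn1 and Os9 were not called. When any 1 of Z-off 1, Z-off 2, Z-off 3 and Z-on 3 was omitted, Syvn1 missed the threshold (adjusted p up to 0.138).

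Of 42 genes of transport from the ER to the Golgi, 12 rose (28.6%) and 4 fell (9.52%), against 11 and 2 after quantile normalization, 3 and 13 after centring and 3 and 2 under all 3 scalings. Where 1 array was omitted, the 12 rises became 7 without Z-off 3. Sar1a, the GTPase that starts COPII coats, read 656, 595 and 712 against 374, 368 and 369 (log2 change 0.79, adjusted p = 0.000369). Mia3, which loads large cargo, read 838, 596 and 807 against 373, 366 and 372 (log2 change 0.96, adjusted p = 0.00318). Lman2, a cargo lectin, read 700.4, 713 and 873 against 339.5, 402 and 409 and, like the other 2, did not overlap (log2 change 0.96, adjusted p = 0.000101). Bet1, a fusion protein of the same step, read 107, 143 and 145 against 268, 319 and 272 and fell (log2 change -1.04, adjusted p = 0.000973).

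Autophagy and lysosome genes, through which polymers of Z protein are known to be cleared, moved in both directions. Of 37 autophagy genes, 6 rose (16.2%) and 3 fell (8.11%), against 5 and 5 after quantile normalization, 1 and 16 after centring and 1 and 2 under all 3 scalings. No single array moved these counts by over 1.5 times. Tfeb, the transcription factor of lysosome genes, read 68.7, 65 and 99.4 on the Z-on arrays and 30.8, 12.5 and 35.2 on the Z-off arrays and rose under all 3 scalings (log2 change 1.18, adjusted p = 0.00211). The starting kinases split. Ulk1 read 258, 268 and 192 against 85.4, 135 and 155 and rose (log2 change 0.88, adjusted p = 0.0113), whereas Ulk2 read 116, 248 and 210.1 against 338, 379 and 457 and fell (log2 change -1.02, adjusted p = 0.0101). Map1lc3a and Map1lc3b, which coat autophagosomes, both fell (log2 changes -0.83 and -0.61). Of 37 lysosome genes, 6 rose (16.2%) and 5 fell (13.5%), against 7 and 6 after quantile normalization, 2 and 14 after centring and 2 and 3 under all 3 scalings. By omission of 1 array, the 6 rises became 2 without Z-on 1 and 3 without Z-on 2, Z-off 1 or Z-off 3, and the 5 falls became 3 without Z-off 1. Dnase2a, a lysosomal nuclease, read 149.7, 223 and 178 against 2345, 2195 and 1206, and littermates 231, 738 and 289 (log2 change -3.23, adjusted p = 0.000204). Atp6v1h, a subunit of the proton pump, read 114, 141 and 127 against 349, 332 and 344 and fell (log2 change -1.32, adjusted p = 5.8e-05). Atp6v0a1 of the same pump read 156, 188 and 149 against 55.5, 80.9 and 91.8 and rose (log2 change 0.98, adjusted p = 0.000555), as did Mcoln1, a calcium channel of lysosomes (log2 change 1.17, adjusted p = 0.00016). The call of Map1lc3b was lost after quantile normalization, and Ulk1 lost its call after centring. Omitting Z-off 1 took the adjusted p of Ulk1 above the threshold (0.0601). Leaving out any 1 of Z-off 1, Z-off 2, Z-off 3 and Z-on 2 ended the call of Map1lc3a (adjusted p up to 0.125).

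Genes of NF-κB signalling were called higher at a share near that of all genes (31.6%, and 10.1% under all 3 scalings). Of 29 measured, 11 rose (37.9%) and 0 fell (0%), against 6 and 4 after quantile normalization, 4 and 8 after centring and 3 and 0 under all 3 scalings. Among fits without 1 array, the 0 falls became 1 without Z-on 2. Nfkbia, the inhibitor that NF-κB induces, read 1897, 1621 and 1966 on the Z-on arrays and 968, 1124 and 1061 on the Z-off arrays and did not overlap (log2 change 0.79, adjusted p = 0.000272). Map3k14, the kinase of the alternative route, read 66.9, 74.7 and 70.1 against 9.0, 33.2 and 21.6 (log2 change 1.27, adjusted p = 0.000649). Traf6, an adaptor, read 47.8, 46.9 and 37.3 against 11, 17.3 and 15.6 and, like Map3k14, was called under all 3 scalings (log2 change 0.97, adjusted p = 0.000154). Of the targets, Il1b, an inflammatory cytokine, read 55.1, 54.4 and 63.1 against 21.1, 16.7 and 20 (log2 change 1.06, adjusted p = 0.000253), and Ccl2, a monocyte chemokine, 36.3, 33.8 and 38.1 against 9.7, 3.0 and 11.5 (log2 change 1.13, adjusted p = 0.00432). Of 9 neutrophil markers 6 rose and none fell, with a summed signal of 349 to 428 on Z-on, 90.8 to 132 on Z-off and 276 to 392 on littermate arrays, and their part in these rises was not tested. Of 13 Kupffer cell and macrophage markers none rose and 2 fell (15.4%, beside 7.46% of all genes). Their summed signals were 1640.5 to 2176 on Z-on and 1670.2 to 2729.9 on Z-off. The falls were the complement genes C1qa (114, 114 and 135 against 330.1, 145 and 212) and C1qc (57.1, 101 and 139 against 273, 143 and 178). Quantile normalization ended the call of Ccl2, and centring that of Nfkbia. The call of C1qa did not survive the loss of any 1 of Z-off 1, Z-on 1 and Z-on 2 (adjusted p up to 0.0986). Without Z-off 1 or Z-on 1, C1qc did not pass (adjusted p up to 0.0653).

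Plasma proteins of the hepatocyte fell in part, and the counts depended on scaling. In group 5, the brightest genes (mean signal over 242), 19.0% of genes fell, and 12.1% after quantile normalization. Of 37 acute phase genes, 6 rose (16.2%) and 6 fell (16.2%), against 6 and 3 after quantile normalization, 2 and 18 after centring and 2 and 3 under all 3 scalings. When 1 array was dropped, the 6 falls became 3 without Z-on 1 or Z-off 2 and 2 without Z-on 2 or Z-off 1. Of 40 complement and coagulation genes, 1 rose (2.5%) and 17 fell (42.5%), against 1 and 8 after quantile normalization, 0 and 35 after centring and 0 and 8 under all 3 scalings. In fits short of 1 array, the 1 rise became 0 without Z-on 1, Z-on 2, Z-on 3, Z-off 1 or Z-off 2, and the 17 falls became 11 without Z-on 1 or Z-on 2 and 10 without Z-off 1. Orm1, orosomucoid, read 1828, 1990.2 and 1961 on the Z-on arrays and 4464, 4643 and 4246 on the Z-off arrays and fell under all 3 scalings (log2 change -1.20, SE 0.13, adjusted p = 2.42e-05). Fga, a chain of fibrinogen, read 6104, 5627 and 5404 against 9836, 8518 and 8980.1 (log2 change -0.67, adjusted p = 0.0056), and Saa2, serum amyloid, 29.4, 53.2 and 72.8 against 204, 133 and 106 (log2 change -1.28, adjusted p = 0.0287). Hc, complement C5, read 503, 872 and 1643 against 3003, 3181 and 2351, with Z-on 3 well above the other on arrays (log2 change -1.63, adjusted p = 0.0091). Proz, protein Z of coagulation, read 451, 418 and 589.5 against 1094, 948 and 1219 and Masp2 of the lectin pathway 498, 413 and 437 against 818, 976 and 936 (log2 changes -1.14 and -0.99). The 2 rises under all 3 scalings were cytokine receptors, Il6ra at 163, 153 and 274 against 38.8, 36.2 and 33.6 (log2 change 1.98, adjusted p = 0.000163) and Osmr at 36.7, 32 and 47.6 against 3.9, 5.6 and 11.8 (log2 change 1.25, adjusted p = 0.000925). Against littermates, Z-on was lower in 17 of 37 acute phase and 20 of 40 complement and coagulation genes, beside 4.63% of all genes. Z-off was lower in 12 and 8, beside 20.1% of all genes, so its count of complement and coagulation genes was near the share of all genes. Hepatocyte markers summed to 46445 to 51161 on Z-on, 52929 to 63067 on Z-off and 79208 to 93026 on littermate arrays, with 2 of 10 lower in Z-on minus Z-off, and their part in these values was not tested. When any 1 of Z-off 1, Z-off 2, Z-on 1 and Z-on 2 was omitted, Saa2 missed the threshold (adjusted p up to 0.113).

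Of 23 apolipoproteins and lipoprotein genes, 0 rose (0%) and 6 fell (26.1%), against 3 and 2 after quantile normalization, 0 and 15 after centring and 0 and 2 under all 3 scalings. With 1 array left out, the 0 rises became 1 without Z-off 2, and the 6 falls became 2 without Z-off 1. Apom, a carrier of sphingosine phosphate, read 1105, 964 and 964 against 3269.9, 3115 and 1957 and fell without overlap (log2 change -1.41, adjusted p = 0.000176). Apob, the scaffold of very low density lipoprotein, read 2343, 1808 and 2850.1 against 7106, 4174 and 5388 (log2 change -1.24, adjusted p = 0.0148). Of 22 serpins, the family of alpha1-antitrypsin, 5 rose (22.7%) and 2 fell (9.09%), against 2 and 0 after quantile normalization, 1 and 8 after centring and 0 and 0 under all 3 scalings. Leaving out single arrays, the 5 rises became 2 without Z-on 2 or Z-off 1 and 3 without Z-on 3, and the 2 falls became 1 without Z-on 1 or Z-on 3 and 0 without Z-on 2, Z-off 1 or Z-off 3. Serpina3n, an acute phase member, read 1125, 1236 and 1230.3 against 405, 767 and 882 (log2 change 0.86, adjusted p = 0.0197). The mouse relative Serpina1c read 8542, 8019 and 8381 against 10135, 9668 and 10027 and did not pass (adjusted p = 0.138), though it fell after centring (-0.71). After quantile normalization Apob was not called, and after centring Serpina3n was not called. Omitting Z-off 1 or Z-on 2 took the adjusted p of Apob above the threshold (up to 0.0655). Leaving out any 1 of Z-off 1, Z-on 2 and Z-on 3 ended the call of Serpina3n (adjusted p up to 0.0976).

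Genes of the NRF2 response and of antioxidant enzymes fell more often than they rose. Of 33 measured, 3 rose (9.09%) and 10 fell (30.3%), against 3 and 10 after quantile normalization, 1 and 19 after centring and 1 and 9 under all 3 scalings. These counts moved by at most 1.5 times without any 1 array. Of the 13 NRF2 targets among them 2 rose and 6 fell, and of 14 other antioxidant enzymes 1 rose and 4 fell. Sod1, cytosolic superoxide dismutase, read 1997, 2122 and 1773 on the Z-on arrays and 4004, 3552 and 3906 on the Z-off arrays and did not overlap (log2 change -0.96, adjusted p = 0.000279). Prdx3, a mitochondrial peroxidase, read 463, 396 and 426 against 658, 762 and 684 (log2 change -0.69, adjusted p = 0.000544). Taldo1 of the pentose phosphate route, which renews NADPH, read 438, 374 and 323 against 708, 715 and 792 (log2 change -0.94, adjusted p = 0.00468), and Pgd of the same route fell by the probe set used (log2 change -0.78), but another of its probe sets rose by 0.67. Osgin1, an NRF2 target, read 278, 204 and 522 against 990.1, 1448 and 1083, with Z-on 3 highest of the on arrays (log2 change -1.84, adjusted p = 0.000939). Slc7a11, the cystine importer, was the rise called under all 3 scalings, at low signal (24.3, 20.2 and 32 against 4.8, 4.7 and 6.4, log2 change 0.95, adjusted p = 0.000427). With M, Sod1 fell (log2 change -1.01, or -0.66 without M-on 1 and M-on 2). Osgin1 did not pass with M (-0.03, adjusted p = 0.946, or 0.51 and 0.403 without those arrays). Its difference between the lines was -1.81 (adjusted p = 0.104), and -2.35 without those arrays, where it passed (adjusted p = 0.0232). The call of Pgd did not survive the loss of Z-on 3 (adjusted p = 0.0516).

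Of 42 cytosolic heat shock genes, 6 rose (14.3%) and 6 fell (14.3%), against 3 and 6 after quantile normalization, 2 and 18 after centring and 2 and 5 under all 3 scalings. Omission of any 1 array moved them by at most 1.5 times. Hspa1a, an inducible Hsp70, read 91.9, 60.5 and 265 against 21.4, 19.4 and 39.8, with Z-on 3 well above the rest (log2 change 1.66, adjusted p = 0.0262). Bag2, a cochaperone, read 73.6, 53.8 and 73 against 21.1, 19.6 and 30.4 (log2 change 1.06, adjusted p = 0.000214). Stub1, a ubiquitin ligase that works with Hsp70, read 300.4, 199.9 and 282 against 453, 435 and 396 and fell (log2 change -0.70, adjusted p = 0.00897). Over all genes the interaction was called for 76 (0.613%), and for 1157 with array weights. With M 37.9% of all genes were higher and 12.4% lower. The interaction was called for 4 members of this list, all less negative with Z than with M, and that count was 0 without Z-on 2, Z-off 1, Z-off 2, M-on 2, M-off 1 or M-off 2, 0 with a constant of 1 or the replicate block, 8 with array weights and 5 without both M-on 1 and M-on 2. With M 20 of the 42 were lower and 5 higher (15 and 6 without those arrays). Hspa1a was called neither after quantile normalization nor after centring. Without any 1 of Z-off 1, Z-off 2 and Z-on 3, Hspa1a did not pass (adjusted p up to 0.131).

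Immediate early genes, which answer quickly to stimuli, were called at shares near those of all genes (31.6% higher and 7.46% lower). Of 37 measured, 12 rose (32.4%) and 3 fell (8.11%), against 6 and 4 after quantile normalization, 6 and 7 after centring and 5 and 3 under all 3 scalings. Where 1 array was omitted, the 3 falls became 1 without Z-off 2. Egr1, a growth response factor, read 52.1, 63.5 and 63.4 on the Z-on arrays and 583, 1022 and 163 on the Z-off arrays, with all off arrays higher but Z-off 2 over 6 times the level of Z-off 3 (log2 change -2.67, adjusted p = 0.0178). Gadd45b, a stress gene, read 63.4, 72.7 and 76.3 against 11, 15 and 13.8 and rose without overlap (log2 change 1.57, adjusted p = 0.000184). Dusp2, a phosphatase of MAP kinases, read 102, 83.8 and 116 against 1.9, 7.0 and 25.3 (log2 change 2.17, adjusted p = 0.000249). Gadd45a, the relative of Gadd45b, read 22.3, 34.5 and 12.5 against 51.1, 98.9 and 63.8 and fell (log2 change -1.16, adjusted p = 0.00238). When Z-off 1 or Z-off 2 was omitted, Egr1 missed the threshold (adjusted p up to 0.0808).

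Matrix and fibrosis genes rose in part, at low to moderate signals for most genes given below. Among all genes 31.6% rose and 7.46% fell. In signal group 2 (mean signal 13.8 to 35.7) 52.7% rose, and in group 3 (35.7 to 88.9) 45.6%. Of 47 measured, 23 rose (48.9%) and 0 fell (0%), against 11 and 2 after quantile normalization, 8 and 3 after centring and 7 and 0 under all 3 scalings. By omission of 1 array, the 0 falls became 1 without Z-on 1. Mmp2, a gelatinase of stellate cells, read 90.4, 77.1 and 107 on the Z-on arrays and 13.8, 15.2 and 16.1 on the Z-off arrays and was separated without overlap (log2 change 1.78, SE 0.13, adjusted p = 3.66e-06). Eln, elastin, read 152, 141 and 118 against 42.6, 45.2 and 26.6 (log2 change 1.51, adjusted p = 1.89e-05), and Col5a1, Col6a2 and Col6a3, collagens of the interstitium, rose by 1.16, 1.19 and 1.24. Ccn2, connective tissue growth factor, read 169.8, 95 and 139.6 against 28.6, 32.2 and 20.5 (log2 change 1.78, adjusted p = 0.000279), and 51.1, 28.2 and 17.5 in littermates. It was thus above both Z-off and littermates, with Z-on minus littermate at 1.67 (adjusted p = 0.00233). Its change with M did not pass (0.42, adjusted p = 0.224, or 0.15 and 0.768 without M-on 1 and M-on 2). The difference between the lines did not pass either (1.36, adjusted p = 0.135), and was 1.63 with M-on 3 as the only M-on array. With M 28 of the 47 rose and 2 fell, beside 37.9% of all genes higher and 12.4% lower with M. Of 12 stellate cell and fibroblast markers 6 rose and none fell, among them Col1a2 (134, 169 and 159.6 against 51.8, 102 and 49.1), Des (63.3, 66.5 and 41.4 against 2.9, 15.6 and 11.6) and Dcn (1004, 852 and 956 against 578, 517 and 509.5). Their summed signal was 2386 to 2616 on Z-on, 1449 to 1843 on Z-off and 1653 to 1771 on littermate arrays, and the part of these cells in the matrix genes was not tested. Centring ended the call of Dcn.

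Of 41 cell cycle genes, 15 rose (36.6%) and 1 fell (2.44%), against 4 and 2 after quantile normalization, 3 and 6 after centring and 3 and 1 under all 3 scalings. Among fits without 1 array, the 15 rises became 7 without Z-on 3, and the 1 fall became 2 without Z-on 2. Rrm2, a subunit of ribonucleotide reductase, read 96.2, 78.4 and 117 against 23.2, 34.2 and 33.7 (log2 change 1.28, adjusted p = 8.56e-05). Cdkn2a, a senescence gene, read 20.6, 19.8 and 15 against 1.1, 1.0 and 0.5, low on every array (log2 change 1.03, adjusted p = 0.000423). The inhibitor Cdkn1b read 45.2, 53.9 and 52.6 against 200.3, 106 and 108 and fell (log2 change -1.16, adjusted p = 0.000391). Of 33 hepatocyte transcription factors and nuclear receptors, 15 rose (45.5%) and 1 fell (3.03%), against 11 and 3 after quantile normalization, 3 and 8 after centring and 3 and 1 under all 3 scalings. When 1 array was dropped, the 15 rises became 9 without Z-on 1, and the 1 fall became 2 without Z-off 3. Prox1, a factor of hepatoblasts, read 101, 101 and 115 against 33.7, 27.9 and 33.5 (log2 change 1.35, adjusted p = 0.000425). Gata4, a factor of early liver, read 96.3, 122 and 95 against 42.9, 31.5 and 55.1 (log2 change 1.04, adjusted p = 0.00031). Thrb, the thyroid hormone receptor, read 49.5, 63 and 82.2 against 22, 24.1 and 20.6 and, like Prox1 and Gata4, was called under all 3 scalings (log2 change 1.06, adjusted p = 0.000826).

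Among genes for RNA splicing more were lower than higher under every scaling. Of 36 splicing and RNA-binding factors, 1 rose (2.78%) and 13 fell (36.1%), against 0 and 13 after quantile normalization, 0 and 26 after centring and 0 and 11 under all 3 scalings. In fits short of 1 array, the 1 rise became 0 without Z-on 3, Z-off 1, Z-off 2 or Z-off 3, and the 13 falls became 8 without Z-off 3. Srsf1, an SR protein, read 193, 259.9 and 230.2 on the Z-on arrays and 594, 609.7 and 719 on the Z-off arrays (log2 change -1.44, adjusted p = 7.07e-05), and its other probe sets gave -0.29 to -1.21. Srsf3, another SR protein, read 168, 271 and 130.0 against 507, 453 and 478 and did not overlap either (log2 change -1.32, adjusted p = 0.000368). Hnrnpa1 and Hnrnpl, binders of nascent RNA, gave log2 changes of -0.77 and -0.82. Ddx5, an RNA helicase, fell by the probe set used (-0.81), though another of its probe sets rose. Over all genes 37.9% were higher and 12.4% lower in M-on minus M-off. With M 26 of the 36 were lower and 2 higher (28 and 1 without M-on 1 and M-on 2).

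Ribosomal and respiratory genes fell in part, among bright probe sets. In group 5, the brightest genes, 19.0% of genes fell, and 12.1% after quantile normalization. Of 52 cytosolic ribosomal genes, 3 rose (5.77%) and 21 fell (40.4%), against 2 and 17 after quantile normalization, 0 and 43 after centring and 0 and 13 under all 3 scalings. With 1 array left out, the 21 falls became 13 without Z-on 1 or Z-off 1. Rps20 of the small subunit read 1431, 1744 and 1339 against 3634, 3016 and 2778 (log2 change -1.05, adjusted p = 0.000145). Of 74 mitochondrial ribosomal genes, 9 rose (12.2%) and 14 fell (18.9%), against 6 and 15 after quantile normalization, 1 and 39 after centring and 1 and 11 under all 3 scalings. Leaving out single arrays, the 9 rises became 5 without Z-on 1, Z-on 2, Z-off 1 or Z-off 2, and the 14 falls became 7 without Z-on 3 or Z-off 1 and 9 without Z-off 2. Mrpl12 read 454, 418 and 373 against 982, 1078 and 1199 and fell (log2 change -1.35, adjusted p = 0.000217), while Mrps23 read 237, 262 and 279.7 against 85.1, 91.5 and 81.7 and rose (log2 change 1.43, adjusted p = 2.42e-05). Of 39 genes of respiratory complex I, 2 rose (5.13%) and 16 fell (41%), against 1 and 7 after quantile normalization, 0 and 27 after centring and 0 and 7 under all 3 scalings. Where 1 array was omitted, the 2 rises became 1 without Z-on 2 or Z-off 2 and 0 without Z-off 1, and the 16 falls became 8 without Z-on 3. Its subunit Ndufa4 read 1366, 985 and 1418 against 3174, 2944 and 2701 (log2 change -1.23, adjusted p = 3.57e-05). Of 45 genes of complexes II to V, 7 rose (15.6%) and 18 fell (40%), against 8 and 8 after quantile normalization, 3 and 32 after centring and 3 and 7 under all 3 scalings. By omission of 1 array, the 7 rises became 4 without Z-on 3 and 3 without Z-off 1, and the 18 falls became 9 without Z-on 3 or Z-off 1 and 11 without Z-off 2. Atp5md of ATP synthase read 1042, 702 and 629 against 2471, 2416 and 2126 (log2 change -1.57, adjusted p = 1.89e-05). Cox4i2, Cox6a2 and Cox8c, isoforms of cytochrome oxidase typical of other tissues, were the 3 rises called under all 3 scalings (log2 changes 1.69, 1.29 and 1.51). Of 39 proteasome genes, 2 rose (5.13%) and 7 fell (17.9%), against 1 and 6 after quantile normalization, 0 and 28 after centring and 0 and 5 under all 3 scalings. Among fits without 1 array, the 2 rises became 1 without Z-on 1, Z-on 2, Z-on 3, Z-off 1 or Z-off 3. Its core subunit Psmb2 read 274, 162 and 208 against 423, 449 and 465 (log2 change -1.03, adjusted p = 0.000279).

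Bile acid, interferon and iron genes gave few calls. Of 29 genes of bile acid synthesis and transport, 4 rose (13.8%) and 1 fell (3.45%), against 4 and 0 after quantile normalization, 1 and 13 after centring and 1 and 0 under all 3 scalings. When 1 array was dropped, the 1 fall became 0 without Z-on 3 or Z-off 3. Cyp46a1, a cholesterol 24-hydroxylase known from brain, read 117, 55 and 115 against 14.3, 24.6 and 35.4 and was the rise called under all 3 scalings (log2 change 1.43, adjusted p = 0.000389). Of 32 genes of the interferon response, 3 rose (9.38%) and 2 fell (6.25%), against 2 and 3 after quantile normalization, 1 and 11 after centring and 1 and 2 under all 3 scalings. In fits short of 1 array, the 3 rises became 1 without Z-on 1, Z-on 3 or Z-off 3, and the 2 falls became 1 without Z-on 1 or Z-off 1. Oas2, an antiviral synthetase, read 63.3, 46.7 and 101 against 12.6, 6.2 and 24.2 and rose (log2 change 1.5, adjusted p = 0.000941), whereas Bst2, the antiviral protein tetherin, read 232, 234 and 289 against 884, 689 and 452 and fell without overlap (log2 change -1.32, adjusted p = 0.000208). Of 23 genes of iron and heme, 2 rose (8.7%) and 4 fell (17.4%), against 3 and 2 after quantile normalization, 1 and 10 after centring and 1 and 2 under all 3 scalings. With 1 array left out, the 4 falls became 2 without Z-on 1 or Z-off 3. Tfr2, a hepatic sensor of transferrin, read 1656, 1455 and 1553 against 2411, 2438 and 2328 (log2 change -0.62, adjusted p = 0.00216), and Hmox1, heme oxygenase, read 45.2, 48.4 and 51.5 against 109, 83 and 81 (log2 change -0.72, adjusted p = 0.014). Both fell. Of 37 genes under growth hormone or biased by sex in liver, 1 rose (2.7%) and 2 fell (5.41%), against 1 and 1 after quantile normalization, 0 and 11 after centring and 0 and 1 under all 3 scalings, so most members did not pass. Leaving out single arrays, the 1 rise became 0 without Z-on 2, Z-on 3, Z-off 1, Z-off 2 or Z-off 3, and the 2 falls became 0 without Z-on 1, Z-on 3, Z-off 1 or Z-off 2 and 1 without Z-on 2. The remaining cell type markers are read against 31.6% higher and 7.46% lower of all genes. Rises were 4 of 11 for lymphocytes (36.4%), 4 of 9 for dendritic cells and MHC class II (44.4%) and 1 of 12 for sinusoidal endothelium (8.33%). They were 1 of 9 for cholangiocytes (11.1%) and 1 of 5 for erythroid cells (20.0%), and none of these markers fell. For dendritic cells and MHC class II the median log2 change was only 0.006. Their summed signal was 575 to 781 on Z-on and 610 to 1651 on Z-off arrays. Of 8 adipocyte markers 2 rose (25.0%) and 1 fell (12.5%), and of 7 for exocrine pancreas 2 fell (28.6%). Omitting Z-off 1 took the adjusted p of Hmox1 above the threshold (0.0635).

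Enzymes of drug metabolism changed gene by gene. Of 49 cytochrome P450 genes, 12 rose (24.5%) and 4 fell (8.16%), against 12 and 2 after quantile normalization, 4 and 16 after centring and 4 and 1 under all 3 scalings. Where 1 array was omitted, the 12 rises became 6 without Z-off 1, and the 4 falls became 2 without Z-on 1. Cyp2c54, an arachidonic acid epoxygenase, read 3446, 2469 and 2839 against 765, 1003 and 1719 (log2 change 1.38, adjusted p = 0.00141). Cyp2c37 of the same subfamily read 2962, 1764 and 2119.9 against 437, 958 and 30.9, with Z-off 3 near the littermate signals of 15.4, 40.8 and 24.3 (log2 change 3.03, adjusted p = 0.0415). Cyp1a1, the target of the aryl hydrocarbon receptor, read 68.6, 97.3 and 126 against 13.6, 20.3 and 31.3 (log2 change 1.58, adjusted p = 0.00193). Of 21 glutathione transferases, 1 rose (4.76%) and 5 fell (23.8%), against 2 and 3 after quantile normalization, 1 and 14 after centring and 1 and 3 under all 3 scalings. By omission of 1 array, the 1 rise became 0 without Z-on 1, Z-on 3, Z-off 1, Z-off 2 or Z-off 3, and the 5 falls became 3 without Z-on 3. Gstp3 read 2998, 185 and 4056 against 146, 141 and 128, so Z-on 1 and Z-on 3 were over 10 times the level of Z-on 2, which lay just above the off arrays (log2 change 3.13, adjusted p = 0.026). Mgst3, a microsomal enzyme, read 94.9, 59.5 and 68.7 against 217, 169 and 157 and fell (log2 change -1.13, adjusted p = 0.00157). Of 20 UDP-glucuronosyltransferases and sulphotransferases, 1 rose (5%) and 2 fell (10%), against 1 and 0 after quantile normalization, 1 and 7 after centring and 1 and 0 under all 3 scalings. Among fits without 1 array, the 1 rise became 2 without Z-on 1 or Z-on 3, and the 2 falls became 1 without Z-on 1, Z-on 2, Z-on 3, Z-off 1 or Z-off 2. After centring Cyp2c37 was not called. Leaving out any 1 of Z-off 1, Z-off 3, Z-on 1, Z-on 2 and Z-on 3 ended the call of Cyp2c37 (adjusted p up to 0.197). The call of Gstp3 did not survive the loss of any 1 of Z-off 1, Z-off 2, Z-off 3, Z-on 1 and Z-on 3 (adjusted p up to 0.12).

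Of 262 solute carriers, 122 rose (46.6%) and 11 fell (4.2%), against 72 and 14 after quantile normalization, 53 and 50 after centring and 48 and 11 under all 3 scalings. No single array moved these counts by over 1.5 times. Slc25a29, a mitochondrial carrier of basic amino acids, read 339.7, 306 and 341 against 54.9, 81.2 and 76.4 and rose (log2 change 2.00, SE 0.17, adjusted p = 7.09e-06). Slc7a4, of the cationic amino acid carriers, read 173, 143 and 162 against 29, 41.2 and 34.9 (log2 change 1.78, adjusted p = 3.93e-06). Slc16a1, the lactate and pyruvate transporter MCT1, read 216, 210.2 and 228 on the Z-on arrays and 808, 833 and 694 on the Z-off arrays and fell without overlap (log2 change -1.76, SE 0.18, adjusted p = 1.74e-05). Of 173 zinc finger genes of the Zfp series, 41 rose (23.7%) and 8 fell (4.62%), against 13 and 32 after quantile normalization, 14 and 53 after centring and 12 and 8 under all 3 scalings, so rises and falls changed places with the scaling. When 1 array was dropped, the 8 falls became 5 without Z-on 1 or Z-off 3. Of 56 RAB GTPases, 18 rose (32.1%) and 4 fell (7.14%), against 9 and 8 after quantile normalization, 4 and 18 after centring and 4 and 4 under all 3 scalings. In fits short of 1 array, the 4 falls became 2 without Z-on 3. Rab25 and Rab3d, of recycling and secretion, rose by 1.77 and 1.57 under all 3 scalings.

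Several of the largest changes belonged to none of these groups. By a rule on size, separation of the arrays, a signal of at least 200 in the higher group and a call after quantile normalization, 540 rises and 380 falls qualified, and the 30 largest of each were considered. Fbxo36, an F-box protein, read 589, 527 and 561 on the Z-on arrays and 73.5, 95.9 and 71.3 on the Z-off arrays (log2 change 2.59, SE 0.19, adjusted p = 3.66e-06). Littermates at 103, 129.6 and 149 lay nearer to the off arrays. Pim3, a survival kinase, read 1335, 882 and 1249 against 234, 152 and 278 (log2 change 2.32, adjusted p = 1.74e-05), and Cnot6l, a deadenylase, 406, 416 and 451 against 72, 91.6 and 75.2 (log2 change 2.21, adjusted p = 0.000132). Meg3, an imprinted noncoding RNA, read 260.1, 342 and 176 against 42.7, 56 and 52 (log2 change 2.02, adjusted p = 1.75e-05), and Oxt, oxytocin, 285, 274 and 258 against 50.8, 57.4 and 54.8 (log2 change 2.04, adjusted p = 1.74e-05). Bcl9l, a cofactor of beta-catenin, read 208, 261 and 241 against 29.4, 59.1 and 46.7 (log2 change 2.08, adjusted p = 8.68e-06), and Tff1, a trefoil peptide, 355, 375 and 553 against 123, 106 and 154 (log2 change 1.61, adjusted p = 4.65e-05). All 7 were called under all 3 scalings and with any 1 of the 6 arrays left out. In M-on minus M-off they changed by 2.72, 1.64, 1.17, 0.69, 2.96, 1.63 and 2.35, against 2.93, 1.69, 0.55, 0.59, 2.88, 1.63 and 2.31 without M-on 1 and M-on 2, where Meg3 did not pass (adjusted p = 0.14).

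Among the falls, Pfn1, the actin-binding protein profilin, read 299, 123 and 273 on the Z-on arrays and 1496, 1327 and 1459 on the Z-off arrays (log2 change -2.63, SE 0.24, adjusted p = 1.11e-05). Ggact, an enzyme of protein crosslink turnover, read 47.4, 49.1 and 44.9 against 676, 501 and 270.0 (log2 change -2.89, adjusted p = 1.96e-05). Csad, which makes the taurine precursor hypotaurine, read 194, 216 and 231 against 1735, 1839 and 769 (log2 change -2.58, adjusted p = 0.00132), and 134, 341 and 176 in littermates. Z-off was thus the group that stood apart (2.65 in Z-off minus littermate, adjusted p = 0.00261). Clpx, a mitochondrial protease subunit, showed the same arrangement (278, 502 and 217 against 953, 1009 and 911, and 216, 221 and 258 in littermates). Fabp5, a fatty acid binding protein, read 143, 144 and 126 against 558, 596 and 566 (log2 change -1.94, adjusted p = 0.000212), and 373, 598 and 562 in littermates, so here Z-on stood apart. With M it did not pass (-0.13, adjusted p = 0.742, or 0.36 and 0.465 without M-on 1 and M-on 2). Its difference between the lines was -1.82 (adjusted p = 0.0665), and -2.30 without those arrays, where it passed (adjusted p = 0.00751). Tm4sf4, a regulator of liver cell growth, read 164, 131 and 146 against 568, 649 and 490.4 (log2 change -1.84, adjusted p = 5.57e-05). Ddc, aromatic amino acid decarboxylase, read 390.5, 773 and 251 against 1511, 1827 and 1457 (log2 change -1.86, adjusted p = 0.00282). Fgl1, a hepatokine, read 308, 491 and 574 against 2086, 2487 and 695, with Z-off 3 near the Z-on range (log2 change -1.76, adjusted p = 0.012). Without any 1 of Z-off 1, Z-off 2 and Z-on 1, Fgl1 did not pass (adjusted p up to 0.0577).

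Many calls were shared by the on-off comparisons of both lines. The poly-A and 18S controls given above separated on from off arrays in both lines too, and their part in the shared calls was not tested. Of the 3913 rises with Z, 3230 were also called higher with M, which is 82.5% of the Z calls and 68.7% of the M calls, beside 37.9% of all genes that were higher with M. Of the 925 falls, 544 were also lower with M, 58.8% of the Z calls and 35.4% of the M calls, beside 12.4% of all genes. Opposite calls were made for 12 of the rises and 20 of the falls. Without M-on 1 and M-on 2 the shared calls were 2477 (63.3% and 74.2%) and 391 (42.3% and 27.9%). The interaction was called for 76 genes, and this count ran from 2 without M-off 2 to 1030 without M-on 1, so the list of genes that differ between the lines was not stable.

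Outside the sterol list, the genes with the smallest interaction p among those called with Z included some of opposite sign in the lines. Rdh11, a retinol dehydrogenase that SREBP factors are known to induce, read 76.8, 85.8 and 50.1 on the Z-on arrays and 255, 261 and 200.4 on the Z-off arrays (log2 change -1.57, adjusted p = 0.000142). On M-on arrays it read 310.3, 329.8 and 414 and on M-off arrays 222, 201 and 189, a rise (log2 change 0.73), and the lines differed by -2.30 (adjusted p = 0.0164, or -2.54 and 0.00207 without M-on 1 and M-on 2). This difference missed the threshold when Z-off 2 or M-off 2 was omitted (adjusted p up to 0.074). Zfp445, a keeper of imprints, read 279, 298 and 398 against 120.0, 102 and 116 with Z and rose (log2 change 1.39, adjusted p = 0.00111). It read 193, 66.2 and 76.5 against 188, 186 and 160.2 with M, where it fell (difference 2.12, adjusted p = 0.0408, or 2.46 and 0.000161 without those arrays). The difference was no longer called after any 1 array other than Z-off 3, M-on 1 or M-on 3 was dropped (adjusted p up to 0.0925) or with a constant of 1 or the replicate block. Yae1d1, an assembly adaptor of iron-sulphur proteins, also rose with Z (log2 change 1.14) and fell with M (-0.99), with a difference of 2.13 (adjusted p = 0.0377). Without those arrays it fell with M (-1.55, adjusted p = 0.00221) and the difference was 2.69 (adjusted p = 0.0011). The call of this difference was lost when any 1 array other than Z-on 1, Z-on 3, Z-off 3, M-on 1 or M-on 3 was left out (adjusted p up to 0.0925) or with a constant of 1 or the replicate block. Gadd45gip1, a mitochondrial ribosome protein, read 143, 81.4 and 112 against 422, 479.7 and 319 and fell with Z (log2 change -1.74, adjusted p = 5.68e-05), although its other probe set rose by 0.59. It did not pass with M (-0.04), and the difference was -1.70 (adjusted p = 0.0408). Without M-on 1 and M-on 2 it did not pass with M either (0.31), and the difference was -2.04 (0.00204). This difference missed the threshold when any 1 array other than Z-on 1, Z-off 3, M-on 1 or M-on 3 was omitted (adjusted p up to 0.0925) or with a constant of 1 or the replicate block.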

How the data were processed

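Liver RNA of 15 mice was measured on an Affymetrix mouse array with 22690 probe sets, 3 arrays for each of 5 groups. The values deposited by the authors are linear signal intensities, from 0 to 22995.4. The submitters' processing notes name RMA and give no version, but the values are not logged, and the mean of each array after trimming 2% at each end is 150.06 to 150.08. What background correction and scaling were applied is therefore not known.

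Of the probe sets, 64 were array controls and were left out, 20380 had 1 gene in the platform annotation, 691 had several and 1555 had none. No gene was named from the latter 2 kinds. For the 4956 genes with more than 1 probe set, the one with the highest mean over all arrays stood for the gene, leaving 12393 genes. Gene identifiers of 20351 probe sets matched RefSeq, from which the promoter sequences (assembly GRCm38.p6) were also taken.

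To each signal 16 was added and log2 taken. All 5 groups were fitted together in limma 3.58.1 (R 4.3.3), with 10 residual and 3.89 prior degrees of freedom, and adjusted p-values are Benjamini-Hochberg over all 12393 genes, with a threshold of 0.05. The fit was tested on simulated data. The number of arrays limits the precision.

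Genes are named by rule. They are the 30 largest rises and 30 largest falls with separate arrays, a signal of at least 200 in the higher group and a call after quantile normalization, up to 8 called members of a list with the largest change, the secretory stress genes and Rgs16 that the design names, and the 15 genes with the smallest interaction p among those called with Z. Not every gene that qualified is described, and some list members were added for their role after their values were seen. Members, lists and rules were chosen with earlier results of these data known.

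Alternatives covered the normalization, the added constant, a filter on dim genes, the spread estimate, array weights, the replicate number as a block, the arrays in the fit and the probe set per gene. Calls required under all 3 scalings, centring for contrasts other than Z, list counts without single arrays, and list counts, shared calls and gene values without M-on 1 and M-on 2 were added after seeing the data. Same-numbered Z-on and Z-off arrays did not deviate together from their group means (correlations over genes -0.027, 0.018 and -0.026), so the numbers do not pair the samples. Plots were made in Python 3.11.15 (matplotlib 3.10.9).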

Additional observations from a re-analysis of the deposited data

Results flagged for a closer look

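Differences between the on-off change of the Z line and that of the M line were called for 15 of the genes named above. The calls are those of the interaction term of the limma fit (adjusted p under 0.05 over all genes). A small interaction p was itself 1 of the rules for naming genes, so this number follows in part from the selection. Each value is the log2 change in the Z line minus that in the M line, with 3 arrays in each of the 4 groups. Among sterol enzymes the differences were -3.02 for Mvk, -2.77 for Sqle, -2.47 for Cyp51, -2.27 for Fdps, -2.08 for Dhcr7, -1.77 for Fdft1 and -1.27 for Pmvk, and all 7 were lower with Z than with M. Their adjusted p was 0.00623, 0.0199, 0.00623, 0.0422, 0.0425, 0.0197 and 0.0454 in the same order. Without M-on 1 and M-on 2 the differences were -3.29, -2.72, -2.48, -2.76, -2.40, -1.94 and -1.36, all still called. With 1 array left out, the number of interaction calls over all genes ran from 2 to 1030. Of the 15 genes only Cyp51 and Mvk were called in each of these 12 fits.

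Lower differences were also called for Rdh11 (-2.30, adjusted p = 0.0164), for Acaa2, a thiolase of mitochondrial beta-oxidation (-1.57, adjusted p = 0.0237), and for Gadd45gip1 (-1.70, adjusted p = 0.0408). Higher differences were called for Pfkfb3, which makes the activator of glycolysis fructose 2,6-bisphosphate (2.52, adjusted p = 0.0454), for Yae1d1 (2.13, adjusted p = 0.0377) and for Zfp445 (2.12, adjusted p = 0.0408). The same held for the clock repressor Per2 (2.08, adjusted p = 0.0425) and for Herpud1 of ER-associated degradation (1.44, adjusted p = 0.0454). Without M-on 1 and M-on 2, Pfkfb3 (2.38, adjusted p = 0.0528) and Herpud1 (1.20, adjusted p = 0.0579) were no longer called, and the other 6 of these 8 were.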

How the results depend on the processing

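The count of 4838 genes called between Z-on and Z-off, of 12393, was 3217 after quantile normalization. It was 3123 of the fewer genes left without dim genes and 7357 of 20380 probe sets, so these counts have unlike totals. With 1 array left out it was 3729 (without Z-on 3) to 4194 (without Z-on 2). Its 3913 rises became 1936, 2271 without dim genes and 1425 after centring (3091 to 3409 with 1 array left out), and its 925 falls became 1638 over all probe sets and 3506 after centring (638 to 801). The 76 interaction calls became 23 with a constant of 1, 135 with 64, 126 without dim genes, 1157 with array weights, 11 with the replicate block and 811 without M-on 1 and M-on 2, and ran from 2 (without M-off 2) to 1030 (without M-on 1) with 1 array left out. For M-on minus M-off, 6239 calls became 4111 without dim genes, and 5346 to 6143 with 1 array left out. For Z-on minus littermates, 1480 calls became 976 with a constant of 1 and 956 when only those groups were fitted (932 without Z-on 3 to 1269), and for Z-off minus littermates 2996 became 1588 after quantile normalization and 1728 without dim genes (2046 to 2572). The filters and fits with fewer arrays test fewer genes or samples, and the fit over all probe sets tests more entries. For the other settings the cause was not tested. The replicate block gave 4658 calls (3784 higher, 874 lower), but the numbers do not pair the samples.

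Of the 202 named genes 189 were called between Z-on and Z-off. None changed direction and kept a call under another setting of the probe set used, but of 94 with another probe set of the same gene measured, 6 had one called in the opposite direction (Ddx5, Derl1, Fdft1, Gadd45gip1, Pdia4 and Pgd). The call was lost by 28 after centring, 15 after quantile normalization, 8 when only those 2 groups were fitted, 7 with a constant of 1, 2 with an intensity trend and robust spread, and 1 each with a constant of 64 and with the replicate block. Leaving out some 1 array ended 32 calls. Signals near background limit the dim genes, whose changes are compressed by the added constant.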
